A study of Mus musculus with 12 samples.

Results

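Retinal cells that had received the transcription factor Olig1 by virus were compared with cells that had received green fluorescent protein (GFP), both collected 14 days after optic nerve crush (ONC). The comparison takes in the 3 AAV-Olig1 and the 3 AAV-GFP libraries whose labels give that day, 6 of the 12 libraries of the series, and every expressed gene of the count table: 14985 of 54232 genes passed the filter on low counts and were tested. The other 6 libraries hold the same groups at 7 days after the crush, and their labels also give a virus time of 14 days. All animals were adult male wild-type (WT) mice, all eyes had been crushed and had received an AAV2 vector in the vitreous, and both groups carry a virus time of 14 days in their labels. The study asked how Olig1 over-expression alters the transcriptome of retinal ganglion cells. Each library is a pool of 10 to 20 fluorescent cells, enriched with beads against CD90.2 and picked with a Unipick device; the promoter of the vector is not given in the sources used here. Whether replicate pools of a group stem from different mice is not stated in the labels; the p-values below then reflect only how much these pools vary, and that variation may be technical.

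Retinal ganglion cells are the output neurons of the eye, and crush of the optic nerve cuts their axons, after which most of them die and few regrow. Olig1 is a basic helix-loop-helix factor of the oligodendrocyte lineage and is not a gene of mature retinal neurons. Interferons induce a large set of antiviral genes through a receptor, its kinases and a complex of transcription factors, which binds paired GAAA repeats in the promoters of its targets. ON bipolar cells carry the light signal from photoreceptors to ganglion cells through the glutamate receptor Grm6 and the channel Trpm1.

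The 6 libraries held between 18798849 and 27602459 counts each, and levels are given as counts per 1000000 of the library total (CPM), in the order of replicates 1, 2 and 3. A count of 0 allows up to 0.109 to 0.160 CPM, and such limits and the intervals below cover counting error only. Between 10129 (GFP replicate 1) and 15826 genes (Olig1 replicate 3) had at least 1 count. Total count, genes detected, the share of the top 50 genes and the mitochondrial share did not separate the groups (exact two-sided permutation tests, smallest p = 0.2). With 3 against 3 libraries this test cannot go below 0.1. The labels call the cells ganglion cells, and the markers did not bear this out for most pools. Summed markers of ganglion cells stood at 424, 331 and 212 CPM in the GFP libraries and at 208, 3576 and 208 CPM in the Olig1 libraries. Of the 16 markers, 4 had no count in any GFP library, among them the ganglion cell factors Pou4f1 and Pou4f2 and the glutamate transporter Slc17a6. Thy1, whose product CD90 is the target of the beads, stood at 38.8, 0.761 and 3.34 CPM with GFP and at 7.46, 28.1 and 1.01 CPM with Olig1. Müller glia markers, in contrast, summed to at least 66131 CPM in every library and rod markers to at least 1242 CPM. The pools are therefore called by their virus below, not by a cell type. Fewer cells of a type in a pool and less RNA per cell cannot be told apart in such data.

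**Figure D1:**
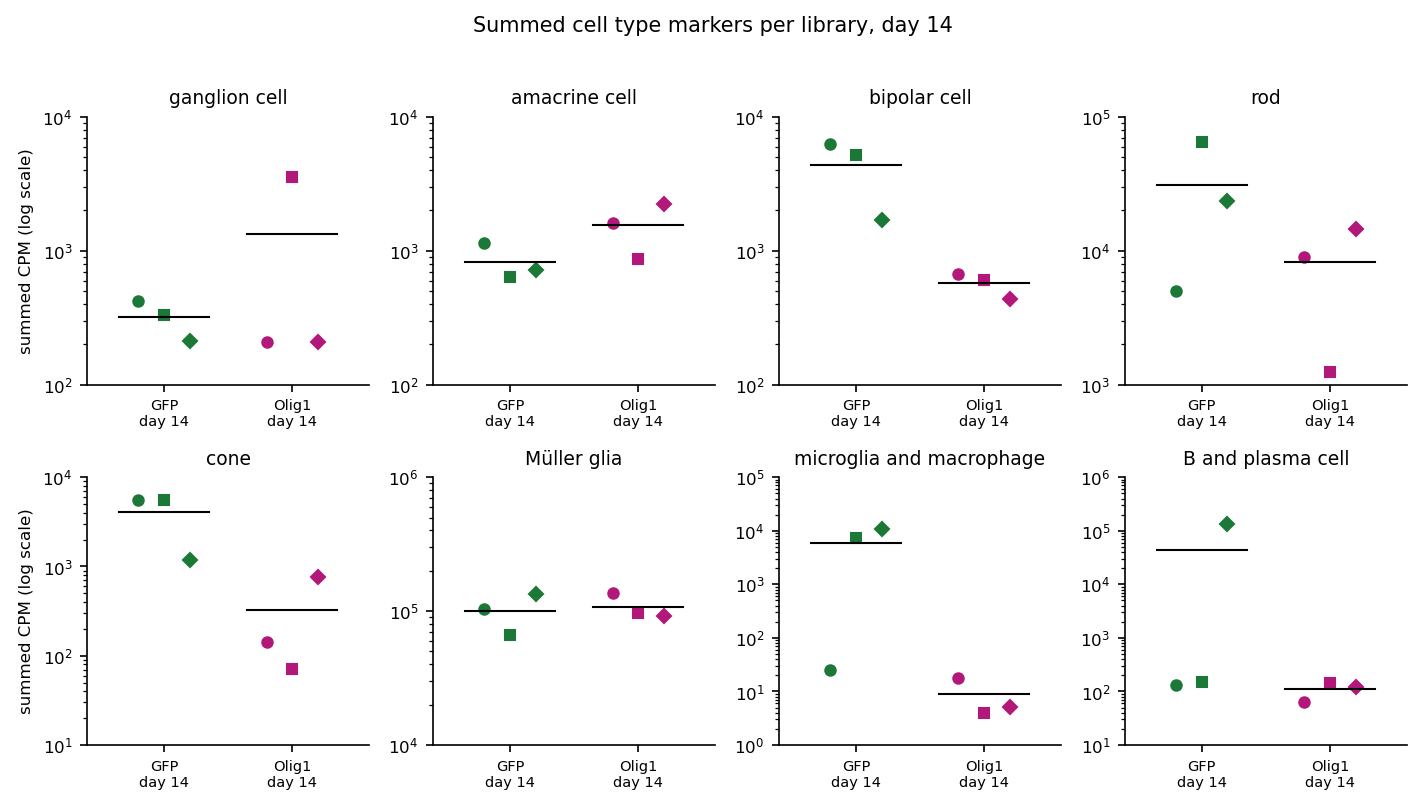
Summed CPM of the marker genes of 8 cell types (log scale) in each library of day 14, with circles, squares and diamonds for replicates 1, 2 and 3 and a black line at the group mean. Bipolar, cone and microglia sums lie lower in all 3 Olig1 libraries, while the ganglion cell sum is high in Olig1 replicate 2 alone, at 3576 CPM. Most of the cone sum in each GFP library is Gnb3, which is also a gene of ON bipolar cells.

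At day 14, 6 of the 14985 tested genes passed an adjusted p of 0.05 (0.04% of the genes tested), 3 higher with Olig1 (0.02%) and 3 lower (0.02%). Here and below, adjusted p-values are from the quasi-likelihood test of edgeR with the Benjamini-Hochberg adjustment over all tested genes. Each change is the log2 fold of Olig1 against GFP, given with ± SE, n = 3 libraries a group. The SE is the size of the change divided by the square root of the F statistic of that test. It uses the spread estimated in the fit of all 12 libraries and is not the spread of the 3 libraries of a group. The 3 higher genes were Olig1, Gad1 and C1ql2, and the 3 lower genes were Ifit1, Tgtp1 and Trpm1. The spread between pools was wide (common biological coefficient of variation 1.351). Across all tested genes 1563 had an unadjusted p under 0.05, of which 835 were higher (5.57% of the genes tested) and 728 lower (4.86%). The groups did not overlap in 1166 genes with the Olig1 pools on the upper side (7.78%) and in 617 with them on the lower side (4.12%). The log2 change was positive in 52.6% and negative in 46.1% of the tested genes. Without 1 library of day 14 the number of calls was 0 to 6, with 0 without Olig1 replicate 3, 1 without GFP replicate 1, 2 without GFP replicate 2 and 3 without GFP replicate 3. The libraries of day 7 enter these tests through the shared estimate of spread and through the filter, so that fits without 1 of them tested 16273 to 16602 genes. Without GFP replicate 1 or 3 of day 7, Ifit1 was the 1 remaining call. Without Olig1 replicate 1, 2 or 3 of day 7, C1ql2 was lost (adjusted p = 0.136, 0.0756 and 0.0718), and Gad1 was lost without replicate 2 (0.106). The shares of all genes that did not overlap are the background for the counts of list members that follow, and the median log2 change of all tested genes with counts at day 14 was 0.12.

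Olig1 (ENSMUSG00000046160, chromosome 16, 91269772 to 91271933 on GRCm38) stood at 0, 0.0362 and 0.251 CPM with GFP and at 56.4, 520 and 120 CPM with Olig1. The 2 groups did not overlap, and the 3 Olig1 pools were far apart, with replicate 2 the highest. Olig1 rose by 11.02 ± 1.57 (edgeR adjusted p = 0.0276). Counts per gene do not part the transcript of the vector from that of the mouse gene. The call was lost without GFP replicate 1 (adjusted p = 0.0670) or 2 (0.199) and without Olig1 replicate 3 (0.0859), while the log2 change stayed between 9.56 and 13.35 whichever of the 6 libraries was left out. The ratio of pooled CPM was 2785, or 955 without Olig1 replicate 2 and 13433 without GFP replicate 3. Over 20 alternatives the adjusted p ran from 2.26e-16 to 0.499, and 14 kept the call. The library with the most Olig1 RNA was also the one with the most ganglion cell marker RNA, and its rod and cone marker sums were the lowest of the 6, at 1242 and 71.2 CPM. Among 21 tested factors of the same protein class (bHLH and Id factors) Olig1 was the only called gene. Id4, an inhibitor of such factors, stood at 0.353, 0 and 0 CPM with GFP and at 16.0, 3.18 and 5.05 CPM with Olig1 (6.17 ± 1.86, edgeR adjusted p = 0.438). The groups did not overlap for Id4, but it did not pass the test.

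**Figure D2:**
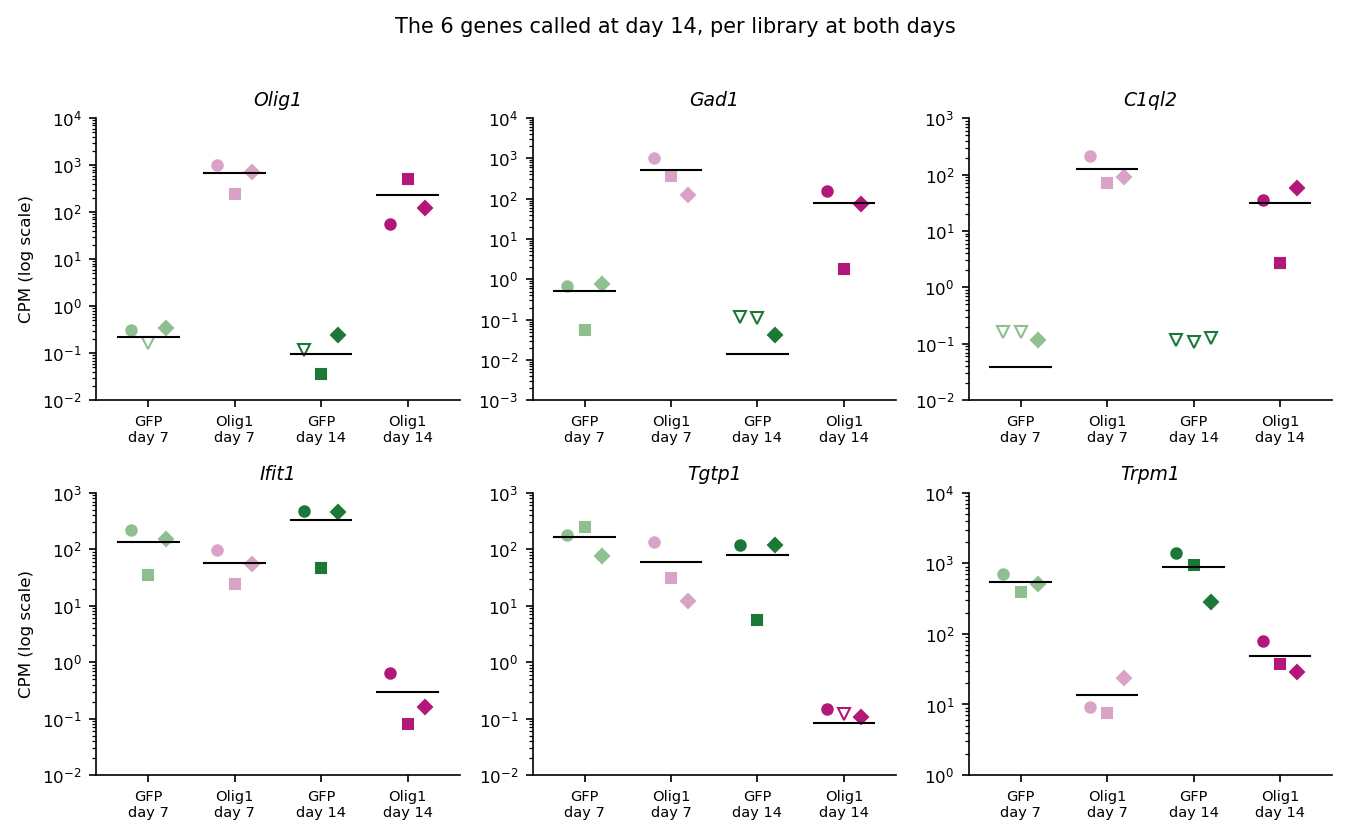
CPM (log scale) of the 6 genes called at day 14 in each of the 12 libraries, with circles, squares and diamonds for replicates 1, 2 and 3, an open triangle at the 3-count limit where a library had no count, and a black line at the group mean. Ifit1 and Tgtp1 are at most 0.630 CPM in the Olig1 pools of day 14, whereas those of day 7 hold at least 12 CPM of each.

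The 2 genes with the largest falls among the calls, Ifit1 and Tgtp1, are both induced by interferon. Ifit1 (ENSMUSG00000034459, chromosome 19, 34640871 to 34650009), which binds viral RNA that lacks the cap methylation of host messengers, stood at 486, 47.4 and 451 CPM with GFP. In the Olig1 libraries it stood at 0.630, 0.0815 and 0.160 CPM, 18 counts in all against 24490. Ifit1 fell by 10.23 ± 1.28 in log2 units, with an edgeR adjusted p of 0.0106, the smallest of all genes. Without Olig1 replicate 3 its adjusted p was 0.0859, and the call held without each of the other 5 day 14 libraries. Of 20 alternatives tried, 17 kept the call, with adjusted p from 8.48e-20 to 0.499. Tgtp1 (ENSMUSG00000078922, chromosome 11, 48985327 to 48994172), an interferon-induced GTPase that attacks the vacuoles of intracellular parasites, stood at 118, 5.65 and 117 CPM with GFP. It stood at 0.145, 0 and 0.106 CPM with Olig1, so that the lowest GFP library was still far above the highest Olig1 library. Tgtp1 fell by 9.96 ± 1.60 (edgeR adjusted p = 0.0335). Its call held without GFP replicate 2 (0.0109) and was lost without any one of the other 5 libraries of day 14 (adjusted p from 0.0670 to 0.296). Over all 20 alternatives tried, the adjusted p ran from 7.05e-12 to 0.643. Tgtp2, its neighbouring and nearly identical copy, stood at 192, 32.6 and 72.6 CPM with GFP and at 4.02, 0.0815 and 0 CPM with Olig1 (-6.16 ± 1.56, adjusted p = 0.429). Reads of the 2 copies cannot be assigned with certainty.

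The promoters of both called genes and of a neighbour of each are shown, from 250 bases before to 50 bases after the start, because these genes were low together in the Olig1 pools. The sequences are from RefSeq on GRCm38.p6, and capitals mark matches to GAAANNGAAA on either strand (TTTCNNTTTC where the match is on the other strand). Matches may overlap. The Ifit1 window lies at chr19:34640639-34640938 (plus strand), that of Ifit3 at chr19:34583279-34583578 (plus strand), that of Tgtp1 at chr11:48992197-48992496 (minus strand) and that of Tgtp2 at chr11:49064163-49064462 (minus strand).
Ifit1 promoter: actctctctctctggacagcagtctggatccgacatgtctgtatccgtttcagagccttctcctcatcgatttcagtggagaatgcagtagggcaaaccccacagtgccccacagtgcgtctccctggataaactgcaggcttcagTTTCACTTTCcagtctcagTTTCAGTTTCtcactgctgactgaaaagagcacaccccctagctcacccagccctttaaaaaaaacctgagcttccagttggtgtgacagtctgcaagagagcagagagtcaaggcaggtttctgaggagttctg
Ifit3 promoter: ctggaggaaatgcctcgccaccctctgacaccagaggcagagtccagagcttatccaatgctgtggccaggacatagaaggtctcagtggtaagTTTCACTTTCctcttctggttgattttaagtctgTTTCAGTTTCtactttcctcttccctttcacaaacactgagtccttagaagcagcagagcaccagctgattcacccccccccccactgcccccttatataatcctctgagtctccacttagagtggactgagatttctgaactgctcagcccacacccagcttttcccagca
Tgtp1 promoter: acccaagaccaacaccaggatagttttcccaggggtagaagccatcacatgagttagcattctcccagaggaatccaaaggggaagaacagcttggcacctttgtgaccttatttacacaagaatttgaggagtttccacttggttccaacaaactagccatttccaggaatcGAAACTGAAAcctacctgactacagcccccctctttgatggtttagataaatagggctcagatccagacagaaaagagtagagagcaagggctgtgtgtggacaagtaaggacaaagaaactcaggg
Tgtp2 promoter: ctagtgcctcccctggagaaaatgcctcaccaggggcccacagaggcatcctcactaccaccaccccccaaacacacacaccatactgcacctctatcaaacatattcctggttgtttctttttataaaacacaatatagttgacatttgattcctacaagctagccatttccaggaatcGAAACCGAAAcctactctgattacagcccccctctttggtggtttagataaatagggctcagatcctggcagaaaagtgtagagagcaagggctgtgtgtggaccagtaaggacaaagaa
Ifit1 and Ifit3 hold 2 matches each, which begin 104 and 85 bases before the start of Ifit1 and 156 and 122 bases before that of Ifit3. Tgtp1 and Tgtp2 hold 1 each, 77 and 70 bases before the start. Of all 32851 promoter windows of this length 3.44% hold the repeat, and of all 27025 genes with a window 3.99% do. It was found in 5 of the 6 Ifit genes with a promoter entry, in 9 of 10 interferon-induced GTPases, in 13 of 22 other interferon-stimulated genes and in 5 of 16 genes of MHC class I presentation. It was also found in 2 of 10 microglia and macrophage markers with an entry (20%) and in none of 13 bipolar cell markers. A match describes the letters of the window and shows neither binding nor a cause.

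Other genes of the same response pointed the same way, but none of them passed the test. In the Ifit family 3 of 4 tested genes lay lower in all 3 Olig1 libraries (75% against 4.12% of all genes), with a median log2 change of -5.34. Ifit3 stood at 5226, 106 and 1150 CPM with GFP and at 7.37, 27.4 and 90.9 CPM with Olig1 (-5.62 ± 1.34, edgeR adjusted p = 0.416). Ifit3b stood at 1275, 29.7 and 473 CPM with GFP and at 25.2, 1.10 and 27.0 CPM with Olig1 (-5.06 ± 1.38, 0.438). The highest Olig1 library was just under the lowest GFP library for both genes. Ifit2 was the exception, with 1 count over the GFP libraries and 0, 11.9 and 0.160 CPM with Olig1. Of the interferon-induced GTPases, 14 of 15 tested genes had a negative log2 change and the remaining gene, Mx2, had no count at day 14 (median -2.99). Groups did not overlap for 4 of the 15 (26.7%). All 26 tested members of a list of other interferon-stimulated genes had a negative change, against 46.1% of all genes, and 9 lay lower in all 3 Olig1 libraries (34.6%; median -2.85). Rtp4, a receptor transporter induced by interferon, stood at 155, 64.7 and 186 CPM with GFP and at 4.70, 0.326 and 17.2 CPM with Olig1 (-4.32 ± 1.18, 0.438). Oasl2, of the oligoadenylate synthetase family, stood at 531, 58.0 and 163 against 24.0, 36.7 and 21.3 CPM (-3.15 ± 0.92, 0.438). Isg15, a ubiquitin-like modifier, stood at 186, 8.22 and 123 against 15.4, 0.204 and 7.71 CPM, and here the groups overlapped.

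The receptors and signal factors of the pathway were on both sides of 0. Of 23 tested genes, 9 had a positive and 14 a negative change (median -0.55). Groups did not overlap in 1 gene on each side (4.35% each, against 7.78% higher and 4.12% lower among all genes). Irf9, a DNA-binding factor of the pathway, stood at 86.8, 12.1 and 56.2 CPM with GFP and at 7.37, 18.7 and 10.4 CPM with Olig1, and the groups overlapped. Genes of antigen presentation on MHC class I lay between, with 15 of 18 tested genes negative (median -1.21). In all 3 Olig1 libraries 5 of the 18 lay lower (27.8%, against 4.12% of all genes). H2-D1, a class I heavy chain, stood at 814, 1337 and 3049 CPM with GFP and at 233, 609 and 215 CPM with Olig1 (-2.47 ± 0.74, edgeR adjusted p = 0.438). Psmb9, a subunit of the immunoproteasome, stood at 147, 49.7 and 71.9 against 11.9, 18.5 and 13.6 CPM (-2.60 ± 0.75, 0.438). B2m, the invariant light chain, stood at 429, 344 and 834 against 196, 424 and 115 CPM and overlapped.

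RNA of immune cells was uneven between the pools, and none of its markers was called. Summed microglia and macrophage markers stood at 25.2, 7323 and 10708 CPM with GFP and at 17.7, 3.99 and 5.21 CPM with Olig1 (exact permutation p = 0.1, adjusted over 16 cell types 0.533). All 15 markers had a negative log2 change, but only P2ry12, a receptor of resting microglia, lay lower in all 3 Olig1 libraries (6.67%, against 4.12% of all genes). P2ry12 stood at 24.5, 52.5 and 18.1 CPM against 0, 0.0407 and 0 CPM. GFP replicate 1 had nearly its whole sum from P2ry12, with no count of Cx3cr1, Tmem119, Csf1r or Aif1 and 0.157 CPM of C1qb. The same library had the highest Ifit sum of the 6 (6987 CPM, against 183 and 2075 CPM in GFP replicates 2 and 3) and the highest sum of interferon-induced GTPases (1068 CPM, against 158 and 549 CPM). GFP replicate 2, with 7323 CPM of microglia markers, had the lowest sums of both lists among the GFP pools. The other interferon-stimulated genes summed to 2070, 692 and 2598 CPM with GFP. This sum was highest in GFP replicate 3, which also had the highest microglia sum. With GFP replicate 1 as the only GFP library of day 14, Ifit1 fell by 10.42 and Tgtp1 by 10.15. A group of 1 library has no spread of its own, and this pool had the highest sums of the Ifit family and of the GTPases. Only the size of these changes is therefore given. In that fit the median changes were -6.35 for the Ifit family, -2.47 for the GTPases, -2.25 for the other interferon-stimulated genes and -0.82 for MHC class I, while the median of all genes was 1.23. The median of the microglia markers turned to 2.76. GFP replicate 3 also held immunoglobulin RNA at 15.3% of its counts, with Igkc at 74564 CPM against at most 24.2 CPM in the other 5 libraries. It also had the highest MHC class I sum (5697 CPM), and the part of immune cells in the interferon and MHC class I values was not tested.

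**Figure D3:**
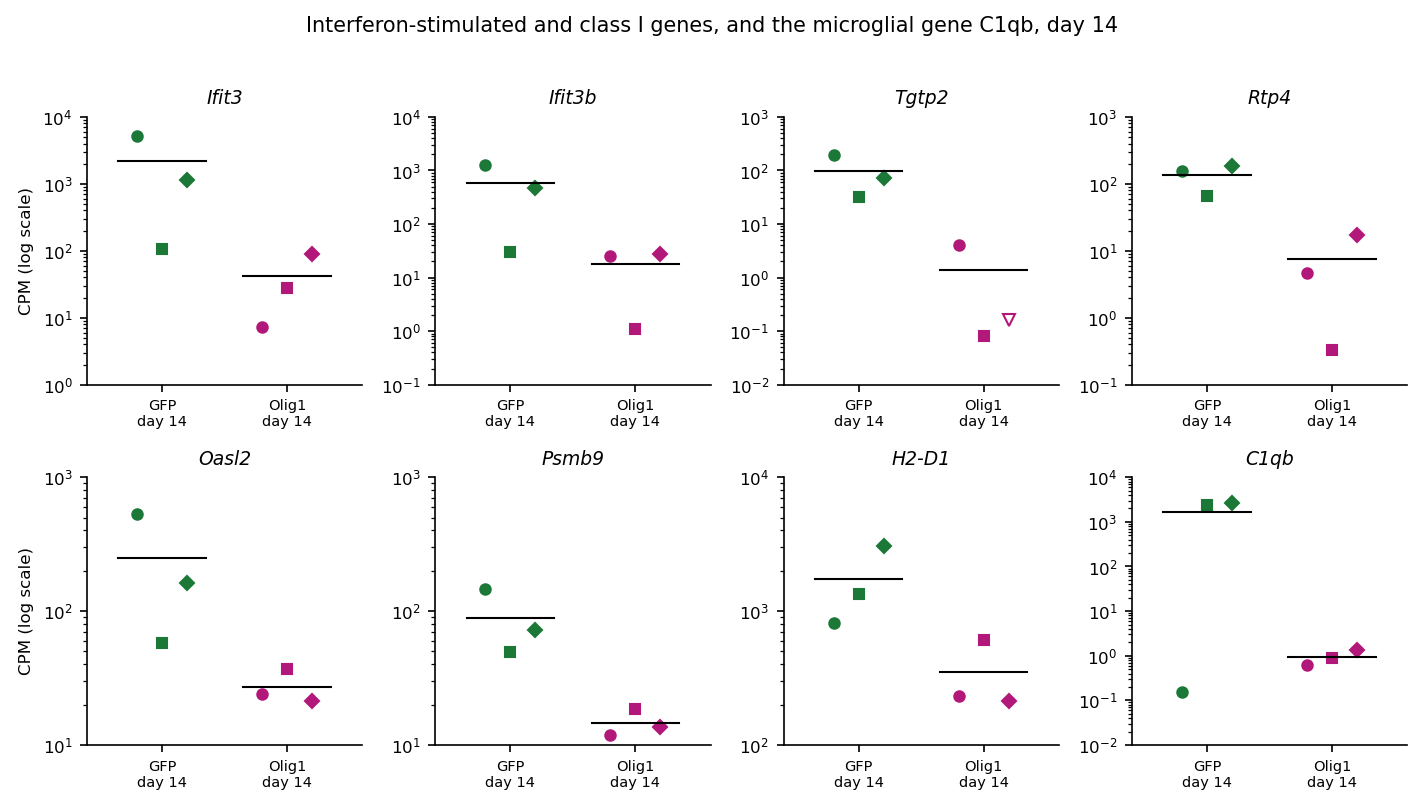
CPM (log scale) of 5 interferon-stimulated genes, of Psmb9 and H2-D1 of MHC class I presentation and of the microglial gene C1qb in the 6 libraries of day 14, with circles, squares and diamonds for replicates 1, 2 and 3, an open triangle at the 3-count limit for a count of 0, and a black line at the group mean. GFP replicate 1 (circle) is high for Ifit3 at 5226 CPM and low for C1qb at 0.157 CPM.

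Trpm1 (ENSMUSG00000030523, chromosome 7, 64153835 to 64269775), the cation channel that opens in ON bipolar cells when light stops glutamate release, stood at 1407, 946 and 284 CPM with GFP and at 79.4, 37.5 and 29.3 CPM with Olig1. Every Olig1 library was below every GFP library, and GFP replicate 3 was the nearest. Trpm1 fell by 4.08 ± 0.63 (edgeR adjusted p = 0.0335). The call held without GFP replicate 3 (0.0168) or Olig1 replicate 1 (0.0491) and was lost without any one of the other 4 libraries of day 14 (adjusted p from 0.113 to 0.389). The change itself stayed between -4.61 and -3.68 in these fits, and over 20 alternatives the adjusted p ran from 2.73e-07 to 0.499.

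The groups did not overlap for most of the listed genes of bipolar cells. Of 15 tested markers, 14 had a negative change and 10 lay lower in all 3 Olig1 libraries (66.7%, against 4.12% of all genes), with a median log2 change of -2.89. Of 13 tested genes of the ON bipolar cascade, 12 were negative and 8 did not overlap (61.5%; median -2.48), and several genes are in both lists. Grm6, the glutamate receptor of these cells, stood at 174, 148 and 47.8 CPM with GFP and at 16.0, 0.326 and 30.4 CPM with Olig1 (-2.93 ± 1.47, edgeR adjusted p = 0.522). Gpr179, which anchors the signalling complex, stood at 177, 58.8 and 23.4 against 17.9, 0.448 and 16.3 CPM (-2.81 ± 1.04, 0.438). The receptor and its anchor were thus lowest in Olig1 replicate 2. Of the G protein subunits, Gnb3 stood at 5578, 3766 and 1100 against 130, 3.99 and 229 CPM (-4.77 ± 1.19, 0.429), and it is also a cone gene. Gng13 stood at 247, 131 and 59.6 against 20.8, 7.33 and 28.0 CPM (-2.89 ± 1.05, 0.438). The alpha subunit Gnao1, which other retinal neurons also make, overlapped at 419, 247 and 79.3 against 66.9, 227 and 68.7 CPM. Rgs11, which speeds the shut-off of the G protein, stood at 215, 94.7 and 136 against 63.8, 20.4 and 63.1 CPM (-1.63 ± 0.71, 0.447). Prkca, the kinase used to stain rod bipolar cells, stood at 401, 167 and 111 against 13.1, 32.1 and 18.2 CPM (-3.35 ± 0.75, 0.329). Pcp2 and the calcium-binding protein Cabp5 changed by -4.72 ± 1.34 and -3.13 ± 0.91 without passing the test (0.438 each). Summed bipolar markers stood at 6319, 5152 and 1713 CPM with GFP and at 673, 605 and 435 CPM with Olig1. The exact permutation p of this sum was 0.1, the smallest the design allows (adjusted over 16 cell types, 0.533).

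**Figure D4:**
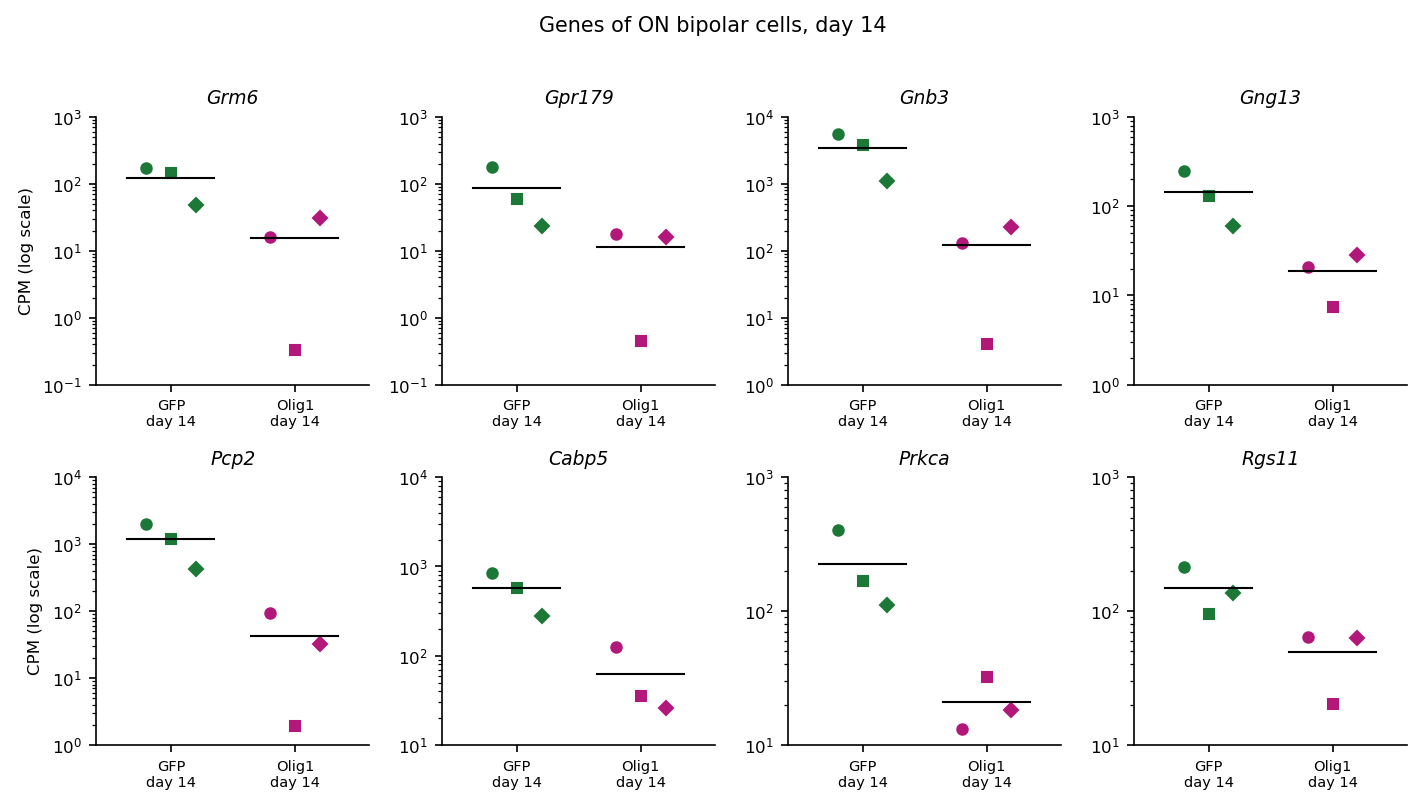
CPM (log scale) of 8 genes of ON bipolar cells in the 6 libraries of day 14, with circles, squares and diamonds for replicates 1, 2 and 3 and a black line at the group mean. The 3 Olig1 pools lie below the 3 GFP pools in each panel, and Gnb3 reaches down to 3.99 CPM in Olig1 replicate 2. Most of the 8 genes were chosen after their values were seen, and other bipolar genes, such as Gnao1, overlapped.

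Photoreceptor genes had negative changes on balance, but their groups mostly overlapped. All 15 tested rod markers had a negative change (median -1.79), and 1 of them, the channel subunit Cngb1, did not overlap (6.67%, against 4.12% of all genes). Cngb1 stood at 95.9, 370 and 226 CPM with GFP and 27.7, 9.82 and 95.1 CPM with Olig1. Summed rod markers ran from 5039 to 64715 CPM with GFP and from 1242 to 14573 CPM with Olig1, so that 2 of the 3 Olig1 pools held more than GFP replicate 1. Of 9 tested cone markers, 8 were negative and Gnb3 alone did not overlap. Summed cone markers stood at 5587, 5601 and 1176 CPM with GFP and at 143, 71.2 and 760 CPM with Olig1. Most of this sum in each GFP library was Gnb3, which ON bipolar cells share. The cone pigment Opn1sw stood at 0, 471 and 7.35 against 2.37, 2.28 and 230 CPM. With GFP replicate 1 as the only GFP library of day 14, the rod median was 1.06 and the cone median 10.29. The median of all genes in that fit was 1.23, and this pool had the lowest rod sum of the 3 GFP pools.

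Gad1 and C1ql2, both on the list of amacrine cell markers, were the other called genes that rose. Gad1 (ENSMUSG00000070880, chromosome 2, 70553072 to 70602014), which makes the transmitter GABA from glutamate, had a single count over the 3 GFP libraries (0, 0 and 0.0418 CPM) and stood at 154, 1.79 and 76.0 CPM with Olig1. Pooled counts gave a ratio of 5605 (95% counting interval 1005 to 221424), and Gad1 rose with an edgeR adjusted p of 0.0335. C1ql2 (ENSMUSG00000036907, chromosome 1, 120340582 to 120343174), a secreted C1q-like protein of synapses, had no count with GFP and stood at 35.0, 2.73 and 58.0 CPM with Olig1, at least 755-fold higher with 3 counts over the group as the floor (adjusted p = 0.0335). Olig1 replicate 2, the pool richest in Olig1 and in ganglion cell markers, was the lowest for both genes. Among fits without 1 library of day 14, both calls held only without that library (0.00764 for Gad1 and 0.0207 for C1ql2), and without any one of the other 5 the adjusted p was 0.0513 to 0.369 for Gad1 and 0.0513 to 0.199 for C1ql2. Over 20 alternatives the adjusted p ran from 2.16e-10 to 0.643 for Gad1 and from 1.35e-10 to 0.643 for C1ql2. The Gad1 ratio was 3597 without GFP replicate 2, 2617 without Olig1 replicate 1 and 9008 without Olig1 replicate 2, and it was at least 1288 without GFP replicate 3. The C1ql2 bound was 484 without GFP replicate 2, 505 without GFP replicate 1, 1181 without Olig1 replicate 2 and 448 without Olig1 replicate 3.

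Amacrine cells are inhibitory interneurons, many of which release GABA, and their other markers were not called. Of 13 tested amacrine markers, 10 had a positive change (median 1.02) and 3 lay higher in all 3 Olig1 libraries (23.1%, against 7.78% of all genes): Gad1, C1ql2 and C1ql1. C1ql1 stood at 0, 133 and 63.3 CPM with GFP and at 489, 163 and 348 CPM with Olig1 (2.28 ± 1.57, edgeR adjusted p = 0.786). Gad2, the second enzyme of GABA synthesis, stood at 0, 7.25 and 0.167 against 17.1, 0.244 and 1.01 CPM, and the vesicular transporter Slc32a1 at 0, 0.326 and 1.50 against 2.13, 3.95 and 0.904 CPM. Both overlapped. The factors Tfap2b (245, 129 and 253 against 401, 196 and 760 CPM) and Pax6 (372, 107 and 137 against 295, 260 and 454 CPM) overlapped as well. Summed amacrine markers stood at 1136, 634 and 723 CPM with GFP and at 1600, 870 and 2228 CPM with Olig1 (exact permutation p = 0.2, adjusted 0.640). Of 17 tested receptor genes for GABA and glycine, 8 had a positive and 9 a negative change (median -0.27). In all 3 Olig1 libraries 3 lay lower (17.6%, against 4.12% of all genes) and 1 higher (5.88%, against 7.78%). Among the lower ones was Gabrr2, a subunit of the receptor on bipolar terminals, at 355, 218 and 154 against 23.5, 1.02 and 61.5 CPM.

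For ganglion cell and regrowth genes, several of the highest values came from Olig1 replicate 2. Of 14 tested ganglion cell markers 12 had a positive change (median 2.93, or 2.66 with genes lacking counts in 1 group at their bound). In all 3 Olig1 libraries 4 lay higher (28.6%, against 7.78% of all genes), but none was called. Sncg, a synuclein of ganglion cells, stood at 0, 14.1 and 32.9 CPM with GFP and at 58.8, 2261 and 66.9 CPM with Olig1 (5.45 ± 2.55, edgeR adjusted p = 0.505). Slc17a6 had no count with GFP and stood at 0, 25.7 and 1.06 CPM with Olig1. The difference in the marker sum was 0.79 on the log2 scale and turned to -0.57 without Olig1 replicate 2. The list median without that library was 1.75. Isl1, which ganglion and bipolar cells share, went the other way at 188, 182 and 120 against 31.3, 70.6 and 29.3 CPM. Of 22 tested regeneration-associated genes 16 were positive (median 1.31, and 1.29 without Olig1 replicate 2). In all 3 Olig1 libraries 5 of the 22 lay higher (22.7%, against 7.78% of all genes). Gal, a neuropeptide of injured neurons, had no count with GFP and stood at 0.0485, 162 and 5.21 CPM with Olig1. Klf7, a factor that promotes axon growth, stood at 0.118, 1.70 and 1.13 against 2.28, 25.7 and 43.6 CPM (4.50 ± 1.60, 0.438). Gap43, a growth cone protein, overlapped at 0, 35.5 and 8.31 against 71.6, 410 and 32.7 CPM. Sox11, a factor used to drive regrowth, had no count with Olig1 and at most 0.941 CPM with GFP, and the injury factor Atf3 was at most 0.902 CPM in any of the 6 libraries. Of 26 tested genes of the axonal cytoskeleton 24 were positive (median 0.97, and 0.40 without Olig1 replicate 2). In this list 6 genes lay higher in all 3 Olig1 libraries (23.1%, against 7.78% of all genes) and 1 lay lower (3.85%, against 4.12%).

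None of the genes on the lists of cholesterol synthesis, mitochondrial RNA, oxidative phosphorylation or glycolysis was called. Of 22 tested genes of cholesterol synthesis 20 were positive (median 1.26, and 0.67 without Olig1 replicate 2). In all 3 Olig1 libraries 6 of the 22 lay higher (27.3%, against 7.78% of all genes). Fdft1, the squalene synthase, stood at 102, 39.4 and 81.1 CPM with GFP and at 143, 344 and 452 CPM with Olig1 (2.03 ± 0.64, edgeR adjusted p = 0.438). Of 12 tested genes of the mitochondrial genome 11 were positive (median 0.93). In all 3 Olig1 libraries 5 of the 12 lay higher (41.7%, against 7.78% of all genes). Mitochondrial RNA made up 3.34%, 4.68% and 4.12% of all counts with GFP and 10.9%, 4.17% and 9.30% with Olig1, so the share was high in Olig1 replicates 1 and 3 only (exact permutation p = 0.2). Nuclear genes of oxidative phosphorylation (median 0.07 over 41 genes), cytosolic ribosomal proteins (-0.04 over 37) and glycolysis (-0.03 over 21) stayed near the median of all genes. Bcl2l1, which encodes a protein that blocks apoptosis, stood at 4.59, 3.95 and 2.05 against 29.5, 21.5 and 18.2 CPM (2.75 ± 1.04, 0.438). It was the only one of 22 tested cell death genes whose groups did not overlap (4.55%, under the 7.78% of all genes). Of 15 tested Müller glia markers (median 0.37) only Vim did not overlap (6.67%, under the 7.78% of all genes). Vim stood at 81.2, 146 and 145 against 255, 240 and 241 CPM (0.90 ± 1.07, 0.970).

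**Figure D5:**
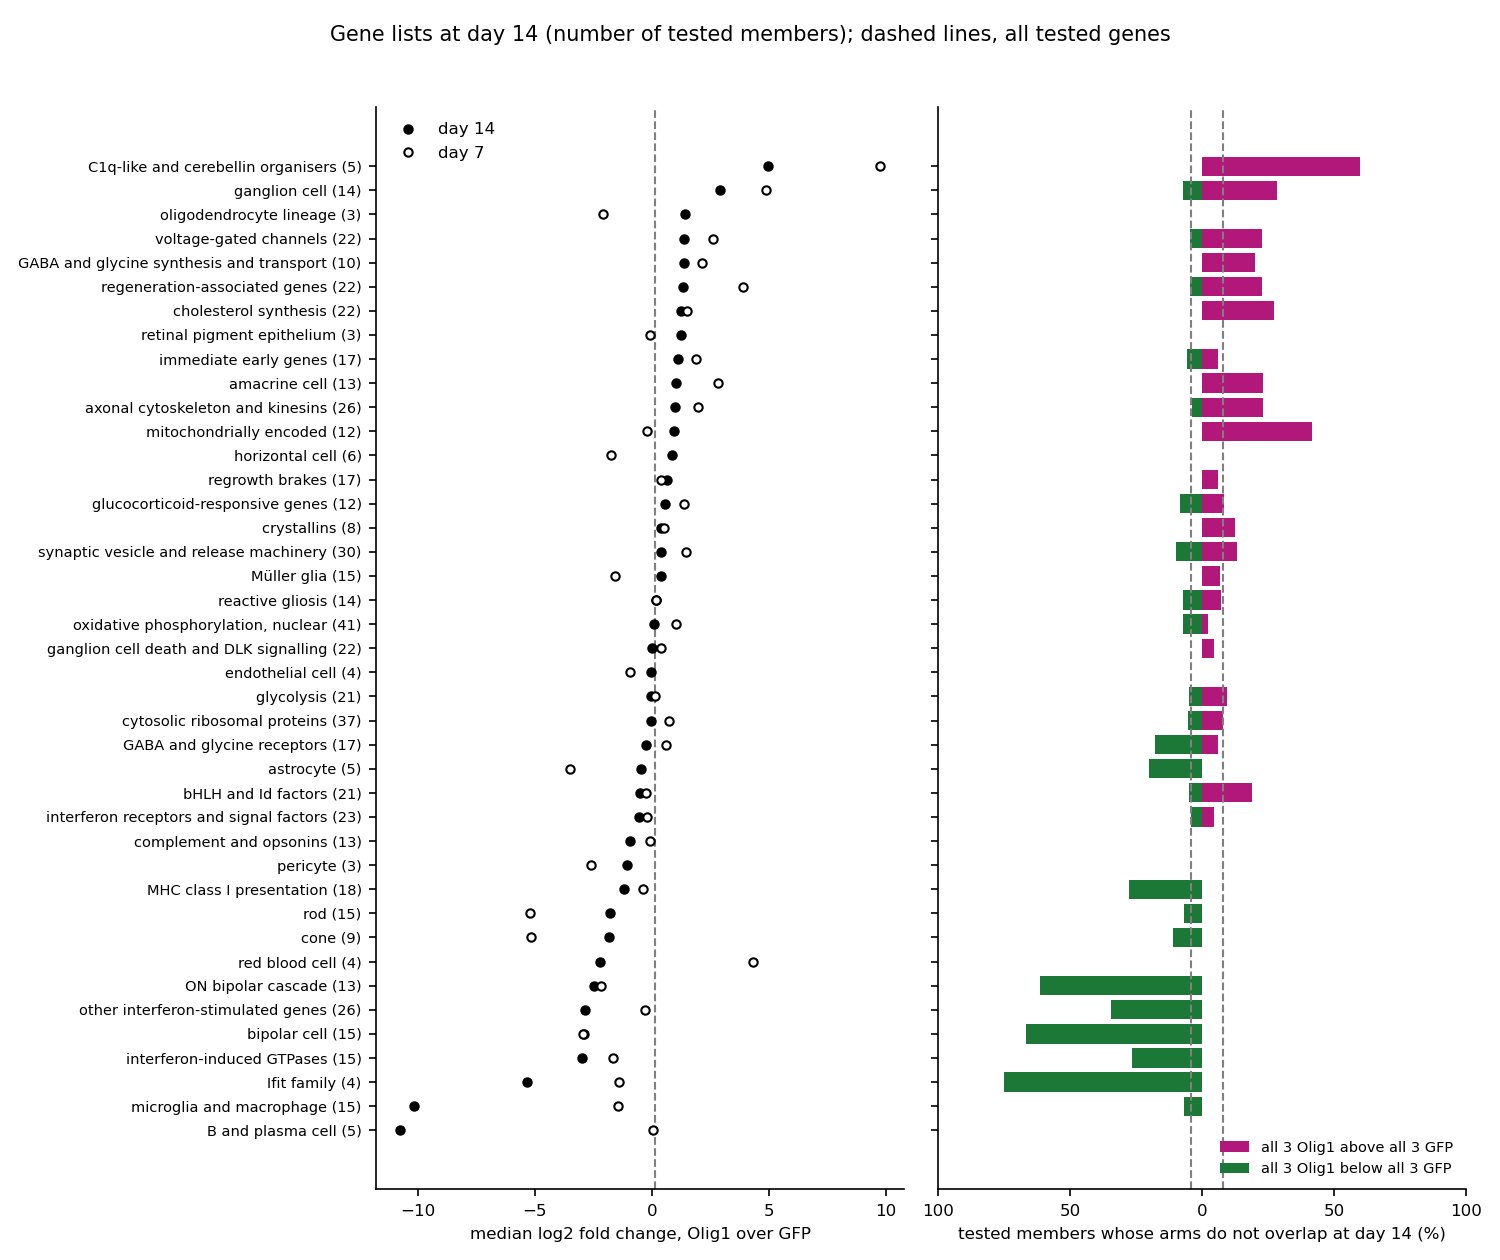
Left, median log2 change of each gene list (tested members in brackets) at day 14 (filled) and day 7 (open); right, the share of tested members whose 3 Olig1 libraries all lie above or all below the 3 GFP libraries at day 14. The dashed lines give the values of all tested genes, 0.12 on the left and 7.78% and 4.12% on the right, and the Ifit family and both bipolar lists reach 61.5% to 75% on the lower side.

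Next to the called genes, the 10 genes on each side with the smallest p among those whose groups did not overlap had adjusted p-values from 0.245 to 0.403, and none is a call. On the higher side, 5 had no count with GFP, among them Zcchc12 (at least 337-fold higher), the adhesion molecule Chl1 (at least 261-fold), the neurotrophic receptor Ret (at least 508-fold) and the RNA-binding gene Rbms3 (at least 1617-fold). The fifth, Nudcd1 (at least 394-fold), shares 266 exon bases with Eny2 on the opposite strand. Chl1 was even across the 3 Olig1 pools, at 10.5, 9.77 and 10.3 CPM, whereas Rbms3 stood at 6.11, 155 and 4.84 CPM. No count in the 3 GFP libraries was found in 4.57% of tested genes. Stmn1, a microtubule-destabilising protein of growing neurons, was the one with counts in all 3 GFP libraries, at 153, 132 and 64.2 CPM with GFP and 355, 1702 and 397 CPM with Olig1 (2.88 ± 0.61, edgeR adjusted p = 0.319). On the lower side, Sebox, a homeobox factor, stood at 1764, 405 and 77.5 against 3.73, 0.326 and 0.106 CPM (-8.92 ± 1.72, 0.289). Nxnl1, the gene of a rod-derived factor that keeps cones alive, stood at 26.7, 71.8 and 39.6 against 3.44, 1.06 and 2.82 CPM (-4.28 ± 0.88, 0.300). Ntng1, a netrin-G adhesion protein, stood at 162, 145 and 27.5 against 6.35, 7.82 and 2.02 CPM (-4.25 ± 0.94, 0.319). Rtn4rl2, a Nogo receptor homologue, had no count with Olig1 and was at least 228-fold lower; no count in the 3 Olig1 libraries was found in 3.63% of tested genes. Prkca (above), Trnp1, Slbp, Cnmd, Yju2 and Cep112 complete this side, and Cd24a, Rgs4, Syt7 and Wscd1 the other.

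The same contrast at day 7, in separate libraries, gave 34 calls (0.227% of the genes tested). Of the 6 genes called at day 14, 4 were called at both days (66.7% of the 6 and 11.8% of the 34): Olig1, Gad1, C1ql2 and Trpm1. The other two, Ifit1 and Tgtp1, had smaller changes at day 7. Ifit1 stood at 216, 35.4 and 153 CPM with GFP and at 96.2, 23.9 and 54.1 CPM with Olig1 at day 7 (-1.08 ± 0.87, edgeR adjusted p = 0.640). Tgtp1 stood at 179, 243 and 76.4 against 135, 30.5 and 12 CPM (-1.44 ± 1.08, 0.606). The low values of both genes were thus in the Olig1 pools of day 14, and the 3 other groups overlapped. The difference between the days was tested directly. For Ifit1 it was -9.15 ± 1.42 (edgeR adjusted p = 0.142), the smallest adjusted p of that test, and for Tgtp1 -8.52 ± 1.77 (0.341). No gene passed the threshold for a difference between the days (1484 had an unadjusted p under 0.05; DESeq2 gave 527 calls and limma voom 0), so an effect on these genes at day 14 alone is not shown. For the 4 genes called at both days the difference was between -0.60 and 1.72 (adjusted p from 0.694 to 0.980). List medians at day 7 and day 14 were -1.42 and -5.34 for the Ifit family, -0.32 and -2.85 for the other interferon-stimulated genes, -2.94 and -2.89 for bipolar markers, -5.23 and -1.79 for rods, and 4.88 and 2.93 for ganglion cells. These pairs of medians were not tested against each other. The labels give a virus time of 14 days for the libraries of both days. If that time runs to collection, the gap between virus and crush also differed between the days, and its part was not tested.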

How the data were processed

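The values are whole-number read counts per gene for 12 libraries, made by the authors with HISAT2 and HTSeq on mm10 after FastQC, per the submitters' processing notes; the tool versions, the gene annotation and whether strand was used in counting were not stated in any source used here. Libraries were made with SMART-Seq HT, per the labels' protocols, without molecular identifiers. The deposited count table of all libraries was used. The single-library files held the same counts for every gene present in both, but for 4 libraries the files used here hold 51379 to 53962 of the 54232 genes; those of 3 day 14 libraries lack genes with 6.85%, 7.36% and 14.0% of the table's counts (GFP replicates 1 and 3 and Olig1 replicate 3). Gene IDs were matched to GENCODE M21 (GRCm38) for 54165 of 54232 genes.

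Counts were scaled by TMM and tested with the quasi-likelihood test of edgeR 4.0.16 (R 4.3.3, robust) in 1 fit of 12 libraries and 4 groups with 8 residual degrees of freedom, after filterByExpr with a minimum count of 10. Calls had a Benjamini-Hochberg adjusted p of at most 0.05. CPM use the library's total count as the denominator. For marker sums, as log2(CPM + 1), and library measures, exact two-sided permutation tests were run. DESeq2 1.42.0, limma 3.58.1, other filters and left-out libraries were alternatives. The fit was also run on simulated counts, drawn around a common mean for each gene apart from genes given a set change. Such counts hold no differences in cell type between pools, and the outcome is not reported here.

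Genes were named by a rule: Olig1, called genes, the 10 on each side with the smallest p among uncalled genes without overlap (no predicted models), the called or 3 smallest-p members of each of 42 lists, and a panel of markers. Chosen after their values were seen were Pou4f2, Isl1, Pax6, C1ql1, Grm6, Cabp5, Pcp2, Gnao1, Gng13, Rgs11, Gpr179, Opn1sw, Vim, Csf1r, Aif1, Irf9, Tgtp2, Ifit2, Klf7 and Id4. Some genes under the rule are not reported here. The lists and members were chosen with earlier results of these data known.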

Additional observations from a re-analysis of the deposited data

How the results depend on the processing

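Each of the 6 called genes kept its direction under all 20 alternatives, but the number of calls did not hold. At day 14 it was 750 with the DESeq2 Wald test (including all 6 genes), 55 with limma voom (3 of the 6), 23 without a filter (4 of the 6), 2 with at least 10 counts in 6 libraries, 0 from the day 14 libraries alone, and 304 without GFP replicates 2 and 3 (287 higher and 17 lower), where the median of all genes was 1.23. Leaving out 1 library gave 0 to 6 calls. For the difference between the days, the 0 calls became 527 with DESeq2, 40 without a filter and 229 without GFP replicates 2 and 3, and 0 to 1 when 1 library was left out. The cause was not tested. Libraries of the same replicate number had correlations of deviations from -0.057 to -0.0253 at day 14 and from 0.0232 to 0.0564 at day 7, all under 0.1. Those of other numbers ran from 0.000189 to 0.0357 at day 14 and from -0.0316 to 0.00623 at day 7. Same numbers were thus lower at day 14 and higher at day 7, which does not settle whether the numbers pair the libraries. A replicate block gave 6 calls, 5 of them shared, with C1ql2 lost (edgeR adjusted p = 0.257), 0 for the difference, and a log2 change of 3.58 for Opn1sw.

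Among named genes and marker sums, changes of sign occurred only in values that did not pass in edgeR; of these, DESeq2 called C1qb (adjusted p = 0.00047), Tmem119 (0.000869) and Csf1r (0.0362), whose adjusted p over all alternatives reached 0.882, 0.861 and 0.921. Without GFP replicates 2 and 3 the log2 changes were 1.74 for Tmem119, 2.25 for Igkc, 2.76 for C1qb, 13.58 for Opn1sw, 5.07 for Csf1r and 4.20 for Aif1, and limma voom gave 1.06 for Thy1. With 1 library left out, the ranges were -11.75 to 0.15 for Igkc, -1.53 to 2.30 for Thy1, -5.82 to 0.86 for Atf3, -1.89 to 5.77 for Gad2 and -5.99 to 4.01 for Opn1sw. For marker sums they were -0.57 to 1.48 (ganglion cells), -0.14 to 0.37 (Müller glia), -0.45 to 1.61 (T cells), -0.38 to 0.78 (endothelial cells), -1.65 to 0.12 (pericytes), -0.56 to 0.41 (oligodendrocyte lineage), -0.61 to 1.95 (pigment epithelium) and -1.02 to 1.11 (red blood cells). Of the list medians recomputed, 741 moved by less than the spread and 72 by more.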
